A study of Homo sapiens with 4 samples.

Results

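The regions described here are stretches of ATF3 signal inside 6 zinc-finger gene clusters of human chromosome 19 (genome build hg19). A region is the union of listed peaks, from any of 4 libraries, that share at least 1 bp, and it counts as a member if it overlaps one of 6 fixed spans. Numbered along the chromosome, the spans run from 11600000 to 12600000 (span 1), 19800000 to 24400000 (span 2), 36600000 to 38400000 (span 3), 44200000 to 45000000 (span 4), 52300000 to 54100000 (span 5) and 56000000 to 59100000 (span 6). They hold 274 regions, of 2356 on chromosome 19 and 44826 on chromosomes 1 to 22 and X. No member crosses an edge of a span. The spans are fixed positions, but a region needs a listed peak, and the members were chosen with earlier results of these data known. The other 2082 regions of chromosome 19 serve as the comparison.

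The cells are SW480, an established line from a colorectal adenocarcinoma. Where 2 values stand side by side for a medium, they are those of replicate 1 and replicate 2, in this order. All 4 libraries were made with the same ATF3 antibody by CUT&Tag, a method in which an antibody guides a transposase that cuts and tags nearby DNA, from about 100000 cells each. One pair of libraries comes from cells kept 24 h in full medium and the other pair from cells kept 24 h in cystine-restricted medium. Nothing says that the libraries of a medium came from separate cultures, so their spread may be technical, and no library without the ATF3 antibody was used here. No annotation of hg19 was used, so the regions are named by position, and whether a given region lies at a gene start, in a gene or between genes was not analysed here.

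ATF3 is a stress-induced factor of the bZIP family, which binds DNA as a dimer at sites known as CRE (TGACGTCA) and AP-1 sites. AP-1 sites were searched here with the wider pattern TGANTCA, in which N is any base. Zinc-finger genes of the C2H2 type form the largest family of human transcription factors. Most of those on chromosome 19 arose by duplication in tandem, and many encode a KRAB domain, which recruits the co-repressor TRIM28 and silences transposable elements. Cystine is the oxidised dimer of cysteine, and its import supplies cysteine for glutathione.

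RefSeq (GRCh38.p14) lists 266 protein-coding genes with a zinc-finger symbol on chromosome 19, which is 44.2% of the 602 such genes in the genome and 18.3% of the 1451 protein-coding genes of the chromosome. They stand in rows: 27 follow each other from ZNF737 to ZNF681, 24 from ZNF627 to ZNF791, 24 from ZNF565 to ZNF793, 23 from ZNF772 to ZNF256 and 20 from ZNF283 to ZNF180. The palindrome TGACGTCA, searched on both strands from 250 bases before to 50 after the start, was found in 10 of 230 zinc-finger genes of chromosome 19 with a promoter sequence, or 4.35% (95% Wilson interval 2.38 to 7.82). The share was 3.87% of 955 other genes of the chromosome and 3.0% of all 15843 protein-coding genes. TGANTCA was found in 16 of the 230 (6.96%), in 5.97% of the other genes of the chromosome and in 8.04% of all. TGACGTCA does not hold the letters TGANTCA. The sites of the 10 genes are shown because they are the letters a CRE-binding factor is known to read, with the motif in capitals and 10 bases on each side, 5′ to 3′ on the gene's own strand (minus for the first 5 and for ZSCAN5A, plus for the others).

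ZNF266: gaggcggaagTGACGTCAcggagcgctg
ZNF426: agagcgtaaaTGACGTCAgcggtgcgcc
ZNF121: ggagcggaagTGACGTCAgcgcacaatc
ZNF561: gaagcggaagTGACGTCAgcgcaccacc
ZNF562: ggagcggaagTGACGTCAgtgtgccacc
ZNF875: tgtgtagcgtTGACGTCAgaaacacttc
ZSCAN5A: gcccttgcggTGACGTCActggcggagg
ZNF460: cttcttcgtgTGACGTCAtctccgtggg
ZNF543: cttcgtcgcgTGACGTCAtctccgtgag
ZNF547: tggcgctctaTGACGTCAccgaagtgac

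A gene was counted once if any of its listed starts had a match, with 1.27 starts per gene among these zinc-finger genes and 1.40 among all protein-coding genes. These genes were taken by symbol, not by span, and which of them lie in the 6 spans or under a peak was not analysed here. A match of letters is a description and not a bound site.

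Depth was alike in the media. The genome background is the pileup expected anywhere in the genome and scales with the tags of a library. Worked out from the deposited fold enrichments and p-values, it was 1.3 and 1.08 tags for cystine restriction against 1.11 and 1.32 for full medium. A summit pileup is the number of tags that overlap a peak's highest point. In the clusters the listed summits ranged from 6 to 229 tags over the 4 libraries, and in no library was one below 6 tags listed.

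More ATF3 peaks were listed in the clusters after cystine restriction. The cystine-restricted libraries had 213 and 197 peaks there, those of full medium 104 and 130. The means were 205 ± 11 and 117 ± 18 peaks (SD, n = 2 each), a ratio of 1.75, and ratios of single libraries lay between 1.52 and 2.05. The groups did not overlap. A two-sided exact permutation test gave p = 0.333, and 2 libraries against 2 cannot give a smaller one. In the rest of chromosome 19 the counts were 1562 and 1357 against 1017 and 1054, a ratio of 1.41, and over chromosomes 1 to 22 and X the ratio was 1.73. The clusters held 12% and 12.7% of the chromosome's peaks under cystine restriction and 9.28% and 10.98% in full medium. This difference of 2.21 percentage points was larger than the gap within either medium, again with an exact permutation p of 0.333.

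The density of ATF3 regions over the genome was not worked out here. Compared with the rest of chromosome 19 alone, the clusters were sparse in ATF3 regions. They held 20.9 regions per Mb over 13.1 Mb. The rest held 48.7 per Mb over 42.7 Mb, counted from the first to the last region without the longest stretch that has none, from 24601883 to 27731863. The density was below that of the rest in each of the 4 libraries, and since the libraries share the genome and its sites no p is given. The spans differed from each other by more than the clusters differed from the rest. Span 4 was the densest, with 42 regions or 52.5 per Mb, close to the rest of the chromosome. Spans 6 and 3 had 96 and 55 regions, or 31.0 and 30.6 per Mb. Span 1 had 22 regions, or 22 per Mb, and span 5 had 37, or 20.6 per Mb. Span 2, the longest, had 22 regions over 4.6 Mb, or 4.78 per Mb.

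**Figure D1:**
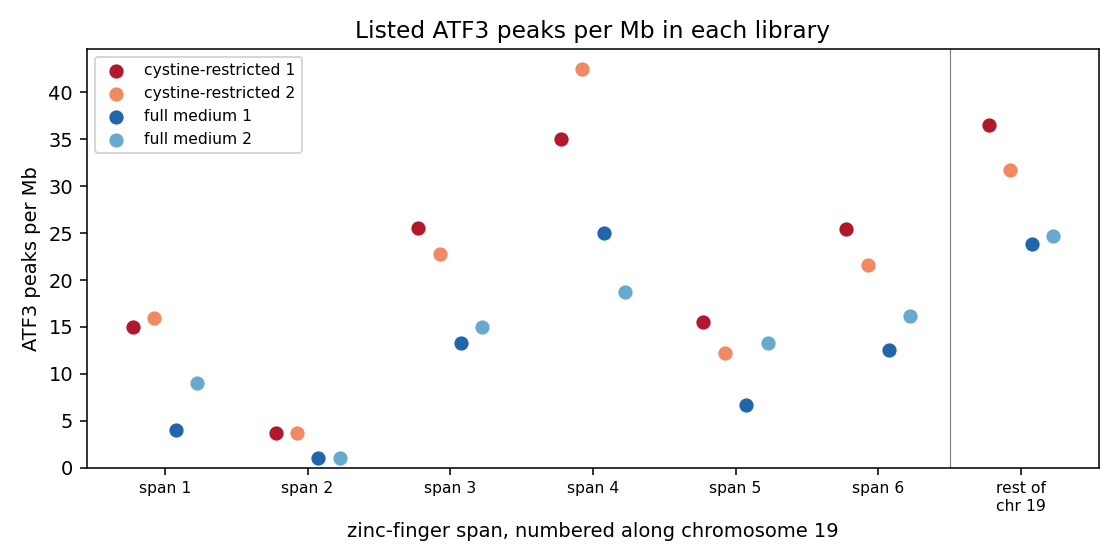
Listed ATF3 peaks per Mb (vertical axis) in the 6 zinc-finger spans and the rest of chromosome 19 (horizontal axis), 1 point per library. Both cystine-restricted libraries lie above both full-medium libraries in 5 of the 6 spans and in the rest, and span 2 is the lowest in each library.

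The excess of peaks under cystine restriction was seen in 5 of the 6 spans. Span 2 had 17 and 17 peaks against 5 and 5, a ratio of 3.40, the highest among the spans. Span 1 had 15 and 16 against 4 and 9. Span 3 had 46 and 41 against 24 and 27, span 4 had 28 and 34 against 20 and 15, and span 6 had 79 and 67 against 39 and 50. In each of these 5 the lower cystine-restricted count was above the higher full-medium count. Span 5 had 28 and 22 against 12 and 24, and there the groups overlapped. No test of a difference between spans was run, and the counts of spans 1 and 2 are small.

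Of the 274 regions, 75 (27.4%) had a peak in all 4 libraries and are called common, against 28.7% in the rest of the chromosome. A further 32 were gained, which means listed in both libraries of cystine restriction but in none of full medium, and none was lost, the reverse case. With the lists cut to equal length these numbers were 12 gained and 8 lost, and 54 and 49 in the rest. Another 31 were listed in both cystine-restricted libraries plus 1 of full medium, and 3 in both of full medium plus 1 cystine-restricted library. A single library held 119 regions (43.4%, against 43.4% in the rest): 56 and 43 under cystine restriction against 6 and 14 in full medium. The remaining 14 had 1 library of each medium. In all, 131 regions (47.8%) were listed only under cystine restriction and 20 (7.30%) only in full medium, against 39.9% and 12.1% in the rest of the chromosome and 49.1% and 10.3% over chromosomes 1 to 22 and X. A peak that is missing from a list did not pass the peak caller there, which is not a measurement of no signal.

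Gained regions made up 32 of the 138 cluster regions found in both cystine-restricted libraries, or 23.2% (95% Wilson interval 16.9 to 30.9), where 27.6% of all 20633 such regions of the genome were gained. In the rest of chromosome 19 the share was 173 of 979, or 17.7% (15.4 to 20.2). The clusters were 5.52 percentage points above the rest, with a 95% Newcombe interval of −1.23 to 13.6, so a difference was not detectable at this number of regions. The interval covers counting error over regions only. Without full-medium replicate 1 the difference was −0.11 points, and without full-medium replicate 2 it was 15.3 (6.89 to 24.0). It was 10.4 (1.53 to 20.4) among peaks with a −log10 q of 5 or more and 10.7 (1.47 to 20.8) with a reciprocal overlap of 50%. None of the 78 cluster regions found in both full-medium libraries was lost, which allows a share of up to 4.69% by the Wilson interval. The lost share was 1.07% (7 of 654) in the rest and 1.56% genome-wide. This limit holds for the lists as deposited: cut to equal length, 8 of 74 cluster regions were lost, or 10.8% (5.58 to 19.9), against 7.70% in the rest.

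Among the spans the gained share ran from 7 of 49 regions in span 6, or 14.3% (7.1 to 26.7), to 7 of 12 in span 2, or 58.3% (32.0 to 80.7). Spans 1, 3, 4 and 5 had 2 of 9, 6 of 30, 6 of 22 and 4 of 16. The intervals of the 4 overlap each other and those of both extremes, and spans were not tested against each other. In span 2, 17 of the 22 regions were listed only under cystine restriction, the other 5 were common, and no region was listed only in full medium.

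The stronger a class of regions, the lower was its gained share. Weak peaks lie near the caller's threshold and are more easily missing from other lists. This order by itself is therefore no measure of a change in signal. Regions found in both cystine-restricted libraries were ranked over the genome by the lower of their 2 percentiles of −log10 p and parted into 3 equal classes. In the clusters 20 of 47 regions of the weakest class were gained, or 42.6% (29.5 to 56.7), 11 of 52 in the middle class, or 21.2% (12.2 to 34.0), and 1 of 39 in the strongest, or 2.56% (0.45 to 13.2). The rest of chromosome 19 had 37.4%, 18.4% and 1.62%, and the genome 53.1%, 25.5% and 4.04%. In each class the cluster share lay between that of the rest of the chromosome and that of the genome, and in the strongest a single region makes the value. The cluster interval held the share of the rest in each of the 3 classes. The clusters had fewer regions in the strongest class, 28.3% against 37.8% in the rest.

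**Figure D2:**
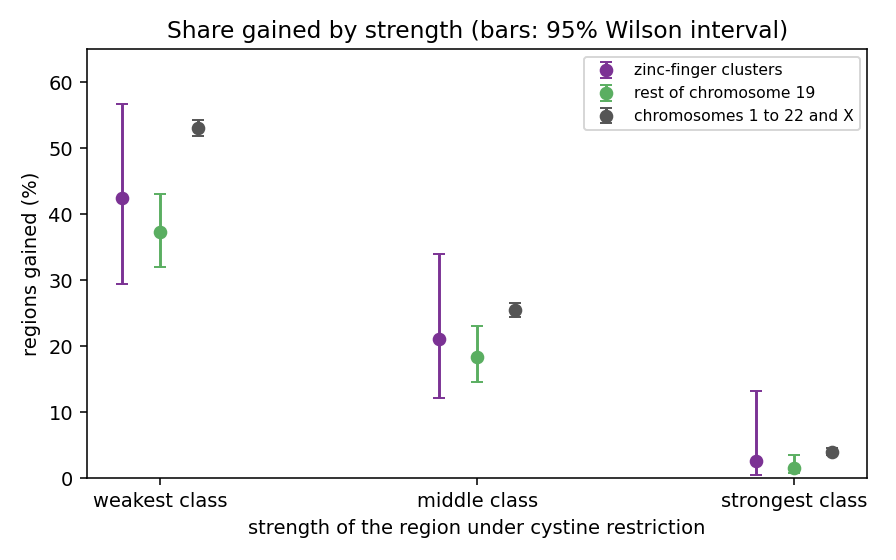
Share of regions gained (vertical axis, percent) among regions found in both cystine-restricted libraries, by strength class (horizontal axis), with 95% Wilson intervals as bars. The cluster share falls from 42.6% to 2.56%, and its intervals hold the values of the rest of chromosome 19.

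The gained regions of the clusters were low. Their summits had 9 to 36 tags in one cystine-restricted library (replicate 1, median 15) and 6 to 30 in the other (median 12), at a fold enrichment, the authors' ratio of summit to expected local pileup, of 3.81 to 8.55 and 3.27 to 7.68. The strongest lay in span 4 from 44318868 to 44319389, with 36 and 30 tags at a fold of 7.14 and 6.29. The next was in span 3, from 37708675 to 37709483, with 20 and 15 tags but a higher fold of 8.55 and 7.68, since the local background there was 1.46 and 1.08 tags against 4.19 and 3.93 at the first. It was followed in span 2 by 23643295 to 23643751, with 19 and 17 tags.

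Span 4 also held the gained regions that came next. From 44224963 to 44225792 the summits had 24 and 26 tags, and the 157 bp region from 44272919 to 44273075 had 36 and 25. Spans 3, 1 and 2 supplied the others of the 10 strongest. The region from 38063004 to 38063460 had 17 and 12 tags, and that from 37340618 to 37341328 had 14 and 14. In span 1 the region from 12195892 to 12196796 had 20 and 13 tags. The regions of span 2 from 24140413 to 24140718 and from 21022942 to 21023718 had 15 and 11 tags each. All 10 stayed gained among peaks with a −log10 q of 5 or more and with the lists cut to equal length. Both cuts only take weaker peaks away, and these 10 were picked as the strongest, so this is no separate support. With a reciprocal overlap of 50%, 6 of the 10 stayed gained.

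At the 75 common regions most ATF3 summits had more tags after cystine restriction. Their median summit had 28 and 22 tags, against 17 and 17 in full medium. Divided by each library's genome background, these medians were 21.6 and 20.3 against 15.4 and 12.9, so both cystine-restricted values were above both full-medium values. Region by region, the log2 change (cystine-restricted minus full medium) had a median of 0.51 (interquartile range 0.30 to 0.77) and was above 0 in 67 of 75 (89.3%). The share above 0 was 90.0% in the rest of chromosome 19 and 92.0% over all common regions of the genome. The genome median of 0.53 was slightly above that of the clusters. The 4 comparisons of single libraries across the media had medians of 0.38 to 0.70, and the median absolute difference within a medium was 0.25 in both media.

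By limma, a linear model fitted over all 10331 common regions of the genome, 27 of the 75 were higher under cystine restriction at an adjusted p of at most 0.05 and none was lower. At an unadjusted p under 0.05, 34 (45.3%) were higher and none lower, against 50.8% and 0.37% of all common regions. Without cystine-restricted replicate 1 the number called was 11, and without replicate 2 it was 18. These counts were out of 77 and 75 common regions of the clusters. With all 4 libraries, 37.2% of common regions over the genome were called higher and 0.155% lower, so the cluster share of 36.0% is near that of all regions. In the rest of chromosome 19, 145 of 598 (24.2%) were called higher, with a median log2 change of 0.41. The median of the clusters was above that of the rest by 0.10, and by 0.10 to 0.16 in the 4 comparisons of single libraries, which share libraries and sites. Both cystine-restricted libraries were above both full-medium libraries in 51 of the 75 regions (68.0%), against 72.8% of all common regions. The reverse order was seen in 3.

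These calls rest on the scale. When each library was scaled by its own median over common regions, 4 of the 75 were called higher and none lower by limma, where 1.71% of all common regions were higher and 1.2% lower, and the cluster median was −0.059. This scaling subtracts 0.57 (log2) from every change. With the authors' fold enrichment in place of the pileup, no cluster region was called, 22 (29.3%) passed an unadjusted p under 0.05, all higher, and the median was 0.25. Over all common regions that scale gave 5 higher calls (0.0484%), 22.7% higher and 0.63% lower at an unadjusted p under 0.05, and a median of 0.21, so the absence of calls is not particular to the clusters. The fold divides by the local background, which at the common regions of the clusters was 2.42 and 2.24 times the genome background under cystine restriction and 1.72 and 1.59 times in full medium; its part in the result was not tested.

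**Figure D3:**
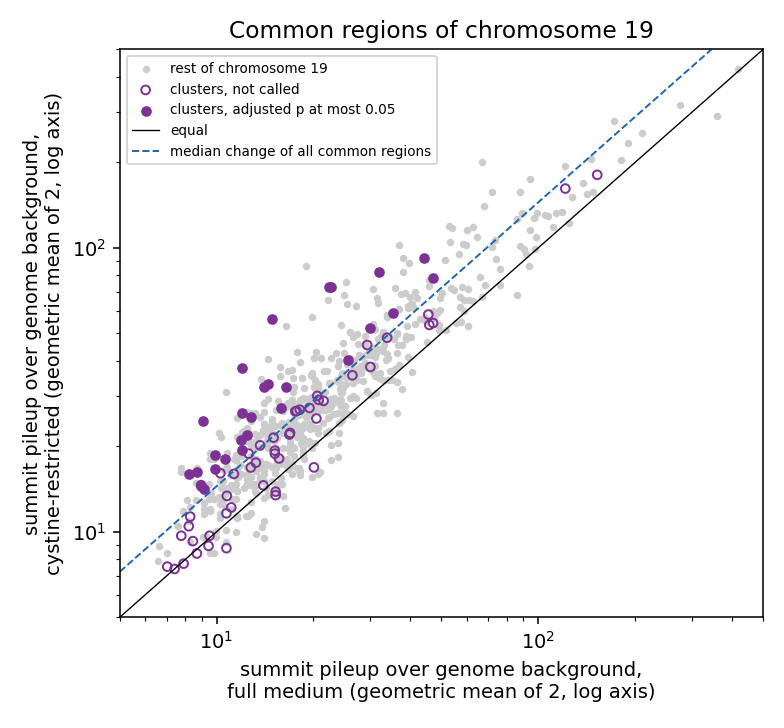
Summit pileup over the genome background at common regions of chromosome 19, full medium (horizontal, log axis) against cystine-restricted (vertical, log axis), each point a region and the geometric mean of 2 libraries. Most cluster regions lie above the line of equal height, and the 27 called ones lie above the dashed line of the median change of all common regions.

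The strongest common region of the clusters, in span 6 from 57790825 to 57792214, had 229 and 201 tags under cystine restriction and 176 and 193 in full medium. Its fold enrichment was 15.6, 16.5, 14.9 and 16.1 in the same order. The cystine-restricted pair was the higher one, but the log2 change of 0.25 (SE 0.23) was not called (adjusted p = 0.38). Its lowest rank percentile among the 4 lists was 99.7. Next came the region of span 4 from 44204670 to 44205995, with 222 and 166 against 157 and 137 tags and a log2 change of 0.41 (SE 0.24, adjusted p = 0.17). These 2 had pileups far above those of the other members, of which none exceeded 146 tags in any library.

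The next, in span 5 from 52390751 to 52391804, was nearly level across the libraries. It had 63 and 66 tags under cystine restriction and 60 and 54 in full medium, and its log2 change was 0.21 (SE 0.25, adjusted p = 0.50). The strongest of span 1, from 11642607 to 11643192, had 77 and 62 against 54 and 56 tags, with a log2 change of 0.36 that was not called. Its fold enrichment was 7.59 and 7.31 against 7.79 and 7.76, which is the other way round, at local backgrounds of 9.27 and 7.62 against 6.06 and 6.35 tags. Regions from 44488235 to 44489138 and from 59055043 to 59055825 changed by 0.43 and 0.34 and were not called either.

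The remaining 4 of the 10 strongest common regions were called higher on the main scale. After scaling by the median their log2 changes were 0.17, 0.17, 0.50 and 0.79, in the order given here. None of the 4 was then called, and none was called on the fold scale. In span 6 the region from 58520590 to 58521587 had 92 and 94 tags under cystine restriction and 54 and 60 in full medium. Relative to the genome background it was 1.66 times as high (log2 0.73, SE 0.23, adjusted p = 0.027 by limma). In span 2 the region from 20162721 to 20163814 had 89 and 55 against 39 and 47 tags, with the same ratio and an adjusted p of 0.031 by limma. Span 3 supplied the other two. From 36673267 to 36674487 there were 146 and 82 against 59 and 48 tags (log2 1.07, SE 0.27, adjusted p = 0.011), with a wide gap between the cystine-restricted libraries. The calls at 58520590, 20162721 and 36673267 were lost when a single library was left out, the first without either cystine-restricted library or full-medium replicate 2 (adjusted p = 0.062, 0.18 and 0.087 by limma). The second was lost without cystine-restricted replicate 1 or either full-medium library (0.28, 0.055 and 0.069), and the last of these without cystine-restricted replicate 1 or full-medium replicate 2 (0.099 and 0.059). From 37487322 to 37488622 there were 109 and 87 against 34 and 44 tags (log2 1.36, SE 0.23, adjusted p = 0.0017).

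The largest increases were at regions with 10 to 28 tags in full medium. In span 6 the region from 56895169 to 56896061 had 79 and 56 tags under cystine restriction and 14 and 23 in full medium. Relative to the genome background, this was a 3.77-fold rise (log2 1.92, SE 0.25, adjusted p = 0.00055 by limma). In span 2 the region from 24236390 to 24237653 had 92 and 81 against 27 and 27 tags, a 3.26-fold rise (log2 1.70, SE 0.23, adjusted p = 0.00071). In both, each cystine-restricted library had at least 2 times the tags of each full-medium library. The region of span 2 is the last one of that span.

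Span 4 held 2 more. From 44351460 to 44352710 there were 89 and 84 against 27 and 28 tags, a 3.20-fold rise (log2 1.68, SE 0.23, adjusted p = 0.00072). From 44376635 to 44377577 there were 50 and 40 against 14 and 15 tags, a 3.14-fold rise (log2 1.65, SE 0.23, adjusted p = 0.00072). The libraries of a medium differed little at these sites, and the media did not overlap. In span 3 the region from 37019123 to 37019963 had 37 and 23 against 10 and 12 tags, a 2.71-fold rise (log2 1.44, SE 0.24, adjusted p = 0.0017). Apart from this last one, they were also the 4 regions still called after scaling by the median, each with an adjusted p of 0.029 by limma. On the fold scale these 5 regions changed by 0.55 to 1.09 (log2) with adjusted p from 0.064 to 0.11.

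The smallest changes were at or slightly below 0 and none was called. The region of span 5 from 54062599 to 54063292 had 12 and 9 tags under cystine restriction and 12 and 14 in full medium, a log2 change of −0.29 (SE 0.23, adjusted p = 0.30). In span 3 the region from 37784192 to 37784967 had 25 and 16 against 28 and 21 tags, or −0.25 (SE 0.27, adjusted p = 0.45). A pair of regions of span 6, from 57901096 to 57901777 and from 57946519 to 57947312, had 17 and 15 against 17 and 20, and 18 and 15 against 17 and 20 tags. In span 4 the region from 44439061 to 44439785 had 14 and 8 against 13 and 10. Relative to the genome background, both cystine-restricted libraries lay below both full-medium libraries at 54062599, 57901096 and 57946519, and the media overlapped at the other two. At 54062599 these values were 9.25 and 8.30 against 10.8 and 10.6.

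Called shares of common regions are given by span, with no test between spans. Over all common regions of the genome 37.2% were called higher. Span 6 had 10 of 30 called higher, span 3 had 6 of 17, span 4 had 5 of 11, span 2 had 4 of 5, and spans 1 and 5 had 1 of 4 and 1 of 8. Median log2 changes were 0.42, 0.69, 0.55, 0.51, 0.26 and 0.54 for spans 1 to 6. The lowest, that of span 5, was between −0.03 and 0.37 in the 4 comparisons of single libraries. Relative to the genome background, all 5 common regions of span 2 were higher in both cystine-restricted libraries than in both full-medium libraries. The same order was seen in 3 of 4 in span 1, 11 of 17 in span 3 and 9 of 11 in span 4. It was seen in 2 of 8 in span 5 and 21 of 30 in span 6, against 72.8% of all common regions. The 27 called regions together changed by 0.63 to 1.92 (log2), or 1.55 to 3.77-fold, and the 48 others by −0.29 to 0.71.

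**Figure D4:**
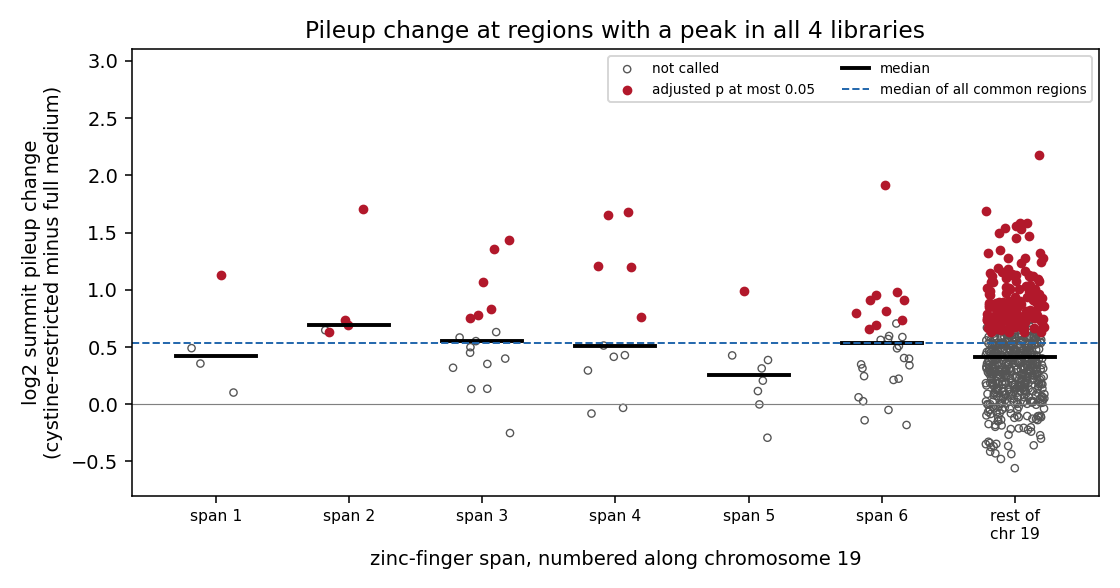
Change of the summit pileup (vertical axis, log2, cystine-restricted minus full medium) at regions with a peak in all 4 libraries, by zinc-finger span and for the rest of chromosome 19 (horizontal axis). Filled points are called by limma, black bars are medians, and the dashed line is the median of all common regions of the genome (0.53). The medians of spans 1 to 6 lie between 0.26 and 0.69.

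The first part of span 4 was crowded. This stretch was chosen after its values were seen. Between 44204670 and 44377577, or 173 kb, lay 24 of the span's 42 regions, and the remaining 622 kb held 18. The crowded part had 5 common, 5 gained and 14 other regions, and the remainder had 6, 1 and 11. It included the second strongest common region of the clusters, their strongest gained region and 2 of their 5 largest increases. Peaks were listed in 14 and 19 of its 24 regions under cystine restriction and in 11 and 9 in full medium. One more called region there, from 44258723 to 44259820, had 47 and 33 against 17 and 18 tags (log2 1.20, SE 0.23, adjusted p = 0.0035).

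Span 2 was the opposite in density. The widest gap between its common regions, singled out after its values were seen, ran from 20278428 to 23732057, or 3.45 Mb. It held 11 regions, and by the choice of the stretch none of them could be common. All 17 regions of span 2 that were not common were listed only under cystine restriction. That the 11 were so listed is therefore no separate result. Over chromosomes 1 to 22 and X, 49.1% of all regions were listed only under cystine restriction. Of the 11, 7 were listed in a single library with 6 to 11 tags. The other 4 were gained. A pair of these, from 21022942 to 21023718 and from 21023881 to 21024419, lay next to each other with 15 and 11, and 10 and 12 tags. Its 5 common regions lay toward both ends of the span. The first, from 19886810 to 19887549, had 28 and 13 against 11 and 14 tags and was not called (adjusted p = 0.078). Those from 20277737 to 20278427 and from 23732058 to 23733302 had 21 and 14 against 9 and 13 tags, and 20 and 14 against 11 and 11, and both were called (adjusted p = 0.038 and 0.049).

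In shape the cluster peaks differed from the rest of chromosome 19 in their surroundings. The median local background of a peak was 1.49, 1.45, 1.66 and 1.41 times the genome background in the clusters (cystine-restricted 1 and 2, full medium 1 and 2) and 2.46, 2.48, 2.51 and 2.33 times in the rest. It was lower in 4 of 4 libraries, for which a sign test cannot give a two-sided p below 0.125. Median summit pileups were lower too, 18, 14, 14.5 and 14 tags against 21, 18, 18 and 19, while median fold enrichments were 5.47, 5.36, 5.33 and 4.83 against 5.07, 5.14, 5.10 and 4.85. The local background is counted over 10 kb and includes the peak's own tags and those of its neighbours.

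Neighbouring regions stood farther apart in the clusters. The median distance from the midpoint of a region to that of the nearest one was 11.8 kb, against 5.72 kb in the rest, and 130 of 274 (47.4%) had a neighbour within 10 kb, against 69.9%. Median peak widths of common regions were 653 and 666.5 bp under cystine restriction and 396 and 456 bp in full medium, and in the rest of the chromosome 716 and 640 against 487 and 489.5 bp. Gained regions had narrower peaks, with medians of 446 and 361 bp in the clusters. The summits of the 4 libraries at a common region lay within 200 bp of each other in 40 of 75 regions (53.3%), against 55.2% in the rest, but the median spread between the outermost summits was wider, 182 bp against 114.5 bp.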

How the data were processed

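Each of the 4 libraries has 1 deposited peak list in the narrowPeak layout. The submitters' processing notes name hg19 and, with no roles or options, the tools MACS2 2.2.7.1, BWA 0.7.17, fastp 0.19.7 and bcl2fastq 2.17. The deposited values per peak are a fold enrichment (ratio of summit to expected local pileup), −log10 p, −log10 q and a score of about 10 times the −log10 q, and the authors' lists also give the summit offset. The lowest listed −log10 q was 1.3. The lists hold no read counts. The fold, (pileup + 1)/(background + 1), and the Poisson p fixed a whole-number pileup and a background for each peak. The −log10 p was matched within 0.1% for 100% of peaks, and local backgrounds were whole multiples of 0.015 (150 bp tags over 10 kb) for 100%. The genome background is each list's lowest one.

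Peaks of chromosomes 1 to 22 and X were merged into regions where they shared at least 1 bp; bedtools 2.31.1 gave the same 44826 regions. In a region the highest peak of a library was used. limma 3.58.1 (R 4.3.3) was fitted to log2(pileup/genome background) at all 10331 common regions, with Benjamini-Hochberg adjustment over all of them. A region enters this fit only if it passed the caller in all 4 libraries, which leaves out those low in full medium. Library counts were compared by two-sided exact permutation tests and shares carry 95% Wilson or Newcombe intervals, which cover counting error only. The steps were tested on simulated data. Python 3.11.15, numpy 2.4.6, scipy 1.17.1, pandas 2.3.3 and matplotlib 3.10.9 were used.

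The rule for named regions took the 10 strongest common and 10 strongest gained regions, all lost ones up to 5, the 5 largest and 5 smallest pileup changes and the strongest common region of each span. The members, tests and lists were chosen with earlier results of these data known. The strength classes, the promoter search and the alternative without span 4 were chosen after seeing the data. Planned descriptions of genes and motifs at the regions were not run, since they need hg19 annotation and sequence.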

Additional observations from a re-analysis of the deposited data

How the results depend on the processing

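The ratio of peaks and the cluster share of chromosome 19 peaks kept their direction in each alternative run for them. With 1 library left out this was fixed beforehand, since both cystine-restricted libraries lay above both full-medium libraries. Lists cut to equal length were not used for these results. With the replicate number as a block (replicate block) the ratio was 1.76. The difference of shares was then 2.21 points, which equals the main value by construction. With the same number of top peaks per library, 12 cluster regions were gained and 8 lost; with a reciprocal overlap of 50%, 5 were lost. With the replicate block, taking each same-numbered pair alone, gained regions numbered 117 and 86, and lost regions 13 and 19. With 1 library left out, 39 to 94 were gained (61 without full-medium replicate 2, 81 without cystine-restricted replicate 1) and 1 to 15 lost, since fewer libraries are required. The gained share of the clusters minus that of the rest then ran from −0.11 to 15.3 points; it was 10.4 among peaks with a −log10 q of 5 or more. Regions called higher numbered 11 to 35 with 1 library left out (11 without cystine-restricted replicate 1), 25 with the replicate block, 4 after scaling by the median and 0 on the fold scale. These counts have different bases. The common regions of the clusters numbered 77 without cystine-restricted replicate 1 and 75 without replicate 2. They numbered 99 without full-medium replicate 1 and 79 without replicate 2. The genome-wide share called is not given for these fits, so the counts alone do not measure a change particular to the clusters. With the replicate block the share called higher was 33.3% in the clusters and 36.0% over all common regions. The median change was −0.059 after scaling by the median and 0.25 on the fold scale. Its difference from the rest was 0.15 among peaks with a −log10 q of 5 or more and 0.085 to 0.13 with 1 library left out.

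After scaling by the median, which subtracts 0.57 from each change, the changes at the regions from 11642607, 44204670, 44488235, 52390751, 57790825 and 59055043 were −0.21, −0.15, −0.14, −0.36, −0.32 and −0.23. The first was −0.062 on the fold scale. With 1 library left out, the region from 37784192 ran from −0.59 to 0.082 (above 0 without full-medium replicate 1), and that from 44439061 from −0.40 to 0.23 (above 0 without that library and, at 0.19, without cystine-restricted replicate 2). None of these was called. Of the 9 named regions called higher, 9 were not called on the fold scale, 5 not after scaling by the median, and 1 to 3 not with 1 library left out. Same-numbered libraries deviated with a correlation of 0.01, and 2 numbers are too few to pair them. Otherwise the cause was not tested. Depth limits the weakest regions, at 6 or 7 tags.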

Other observations

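One unplaced contig assigned to chromosome 19 belongs to no span and entered no comparison. It held 5 peaks in each cystine-restricted library, and 5 and 4 in those of full medium. Fold enrichments there ran from 3.57 to 9.55 under cystine restriction and from 4.05 to 7.24 in full medium.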
